A study of Homo sapiens and Mus musculus with 22 samples.

Results

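The 9 genes described here encode transcription factors that define or mark lineages of small cell lung cancer (SCLC): NEUROD1, NHLH1, INSM1, NKX2-1, FOXA1, FOXA2, POU2F3, ELF3 and KLF4. They were taken by symbol, with mouse symbols written with only the first letter capital, and all 9 were listed in each of the 3 count tables, which together hold 34365 distinct symbols. Among cells with high MHC class I, which shows peptides to T cells at the cell surface, most of the tested factors fell in both sorted high fractions and in the mouse line, and fewer fell in the unsorted human line. In H69M, an unsorted line, INSM1, FOXA2 and NHLH1 stood at levels that were not distinguishable from those of its parent H69, whereas the PD-L1 high fraction of H69M had 3.45-fold less INSM1, 3.99-fold less FOXA2 and 8.65-fold less NHLH1 than the PD-L1 low fraction. KLF4 was lower in the MHC class I high cells of all 3 human comparisons and 4.59-fold higher in those of the mouse.

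SCLC is a neuroendocrine lung tumour, and its subtypes are named after the lineage factor that dominates them, among them the neurogenic factor NEUROD1 and the tuft cell factor POU2F3. NHLH1 and INSM1 belong to the neuroendocrine and neuronal programme, NKX2-1, FOXA1 and FOXA2 to the programme of lung and foregut endoderm, and ELF3 and KLF4 to differentiated epithelium. Loss of the neuroendocrine factors is known to accompany the change of SCLC cells to an adherent, non-neuroendocrine state.

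RNA was sequenced after exome capture from 22 libraries in 8 groups. The human cells all come from the SCLC line NCI-H69. Its derivative H69M is labelled MHC class I high and was sequenced unsorted (n = 3), as a sorted PD-L1 high fraction labelled MHC class I high (n = 3) and as a sorted PD-L1 low fraction labelled MHC class I low or negative (n = 3). PD-L1 is the checkpoint ligand that tumour cells show to T cells. H69 itself was sequenced unsorted and is labelled low or negative (n = 3). H69EZ was obtained from H69 by exposure to an EZH2 inhibitor for 6 days, later culture without it and selection of adherent cells, and was sequenced as fractions high and low for HLA-ABC, the human MHC class I (n = 2 each). No library of H69 lies in the H69EZ table, and the drug was no longer present, so the inhibitor itself is not compared here. In the mouse, the adherent and MHC class I high line RPP-A (631RPP-A, n = 3) was selected on plastic from the MHC class I low line RPP (631RPP, n = 3). Each derivative stands for 1 parent line. Whether the replicates of a group came from separate cultures is not in the labels, and the p-values therefore cover only library-to-library spread, which may be technical.

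Total counts ran from 10817795 to 52458228 per library. Levels are given as CPM, read counts relative to the TMM-scaled library size of their table, so they are compared between groups of a table but not between tables, nor between genes, since they are not set per length. A gene is called higher or lower where its Benjamini-Hochberg adjusted p over all tested genes is under 0.05. In cultures measured in bulk, fewer cells of a type and less RNA per cell cannot be told apart. The neuroendocrine character of the lines was checked on 7 markers (CHGA, CHGB, SYP, NCAM1, GRP, DDC and SCG3). Their summed level was 627 to 638 CPM in the PD-L1 high fraction, 2107 to 2178 CPM in the PD-L1 low fraction, 1629 to 1735 CPM in H69M and 1937 to 2118 CPM in H69, with all 7 at 1 CPM or more in each group. It was 489 to 493 CPM in the HLA high and 1256 to 1291 CPM in the HLA low fraction, and 152 to 193 CPM in RPP-A against 2019 to 2689 CPM in RPP. Only 6 of the 7 reached 1 CPM in both HLA fractions and in RPP-A. All 7 were called lower in the PD-L1 sort and in RPP-A, where 39.4% and 40.6% of all genes were. In the HLA sort 4 of 6 tested were lower and 2 not called (40.2% of all genes lower). In H69M minus H69, 5 were lower, CHGA was higher and CHGB was not called (36.6% lower). Among the mouse libraries, RPPM3 of RPP-A and EHK_RPP4 of RPP were unlike the others of their group, with chi-square values per degree of freedom between 36.3 and 39.3 for RPPM3 and between 29.7 and 33.4 for EHK_RPP4. Values without them are given where they matter. RPPM1 and RPPM2 gave 1.35, the lowest value of any pair within a group. The next lowest was 2.28, in the PD-L1 high fraction. Whether RPPM1 and RPPM2 are separate cultures or 1 RNA sequenced again is not in the labels. In the latter case the mouse standard errors and p-values may be too small. All 7 tested mouse members stayed called in every alternative, with RPPM1 and RPPM2 summed among them. Among the human libraries the HLA high pair gave 10.9 and the HLA low pair 2.65. H69 replicate 3 gave 8.44 and 7.70 with replicates 1 and 2, which gave 4.16 with each other.

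RefSeq promoters (build GRCh38.p14, the 250 bases before a start site) were available for 6 of the 9 genes, and those of NHLH1, ELF3 and NKX2-1 are shown, since NHLH1 and ELF3 set the PD-L1 fractions apart and NKX2-1 was the only member called higher in H69M than in H69. The genes lie on chromosome 1 (NHLH1 and ELF3), 2 (NEUROD1), 9 (KLF4), 11 (POU2F3), 14 (NKX2-1 and FOXA1) and 20 (INSM1 and FOXA2). INSM1, FOXA2 and POU2F3 are named only. Basic helix-loop-helix factors such as NEUROD1 and NHLH1 bind E-boxes (CANNTG), and forkhead factors such as FOXA1 and FOXA2 bind motifs like TGTTTAC. Capitals mark E-boxes in the NHLH1 promoter (chr1:160366821-160367070, plus strand) and the ELF3 promoter (chr1:202010337-202010586, plus strand), and the forkhead motif in the promoter of the downstream start of NKX2-1 (chr14:36519557-36519806, minus strand).
NHLH1: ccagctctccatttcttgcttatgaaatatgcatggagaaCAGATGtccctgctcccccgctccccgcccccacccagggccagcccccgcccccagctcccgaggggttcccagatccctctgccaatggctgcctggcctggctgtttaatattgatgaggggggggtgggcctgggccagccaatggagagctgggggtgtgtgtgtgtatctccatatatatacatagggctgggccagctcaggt
ELF3: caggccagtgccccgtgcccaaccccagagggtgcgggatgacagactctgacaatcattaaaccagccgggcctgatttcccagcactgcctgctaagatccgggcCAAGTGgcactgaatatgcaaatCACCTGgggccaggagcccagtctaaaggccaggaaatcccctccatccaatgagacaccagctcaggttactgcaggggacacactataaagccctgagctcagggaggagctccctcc
NKX2-1: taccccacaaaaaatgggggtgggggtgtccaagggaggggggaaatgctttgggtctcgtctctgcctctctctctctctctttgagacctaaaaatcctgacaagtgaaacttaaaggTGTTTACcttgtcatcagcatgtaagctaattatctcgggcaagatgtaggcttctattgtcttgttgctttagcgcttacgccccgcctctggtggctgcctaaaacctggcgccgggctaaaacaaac
The NHLH1 window held 1 E-box, of the form CAGATG, which 12.2% of 35116 RefSeq promoters of the same length held on either strand. The ELF3 window held 2 E-boxes, 1 of them CAGGTG read on the opposite strand, a form held by 17.5% of promoters. Any E-box was found in 61.8% of promoters and TGTTTAC on either strand in 2.98%. The promoter of NKX2-1 shown lies inside the gene and also held 1 E-box, left in lower case. The window before the upstream start of NKX2-1 (chr14:36520233-36520482, minus strand) held no E-box and no TGTTTAC. Of the windows not printed, that of FOXA1 held 4 E-boxes, that of KLF4 held 2 and that of NEUROD1 held none, and none of these 3 held TGTTTAC. Every CAGATG or CAGGTG is also counted as a CANNTG. A match describes these letters only.

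Across the whole set, 8 of the 9 genes passed the filter on low counts in the human tables and 7 in the mouse table. POU2F3 passed in none, and Nhlh1 did not pass in the mouse. In H69M minus H69, 1 of the 8 was called higher, 4 were called lower and 3 were not called, where 72.5% of all tested genes were called. Between the PD-L1 high and low fractions 1 was called higher and 7 lower, with 78.3% of all genes called. All 8 were called lower in the HLA high fraction of H69EZ, with 81.3% of all genes called. In RPP-A 1 was called higher and 6 lower than in RPP, with 78.2% of all genes called. Of all genes called in the mouse, 48.1% were higher, and 35.2% were with library totals in place of TMM. Since most genes were called in each comparison, the size of the differences says more than their number. The median log2 fold change of the tested members was -0.15 in H69M minus H69, -1.89 between the PD-L1 fractions, -2.38 between the HLA fractions and -6.99 in RPP-A minus RPP, where the median of all tested genes was -0.0087, -0.0031, 7.6e-05 and -0.039. Called and at least 2-fold lower were 2 members in H69M, 7 in the PD-L1 high fraction, 6 in the HLA high fraction and 6 in RPP-A, where 8.55%, 17%, 14.8% and 27.1% of all genes were. The human counts and medians include NEUROD1, which passed the filter only through H69 or the HLA low fraction. In the PD-L1 sort NEUROD1 had 0 against 4 counts and a bound of only 1.23-fold, and its call there was lost in several alternatives.

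**Figure D1:**
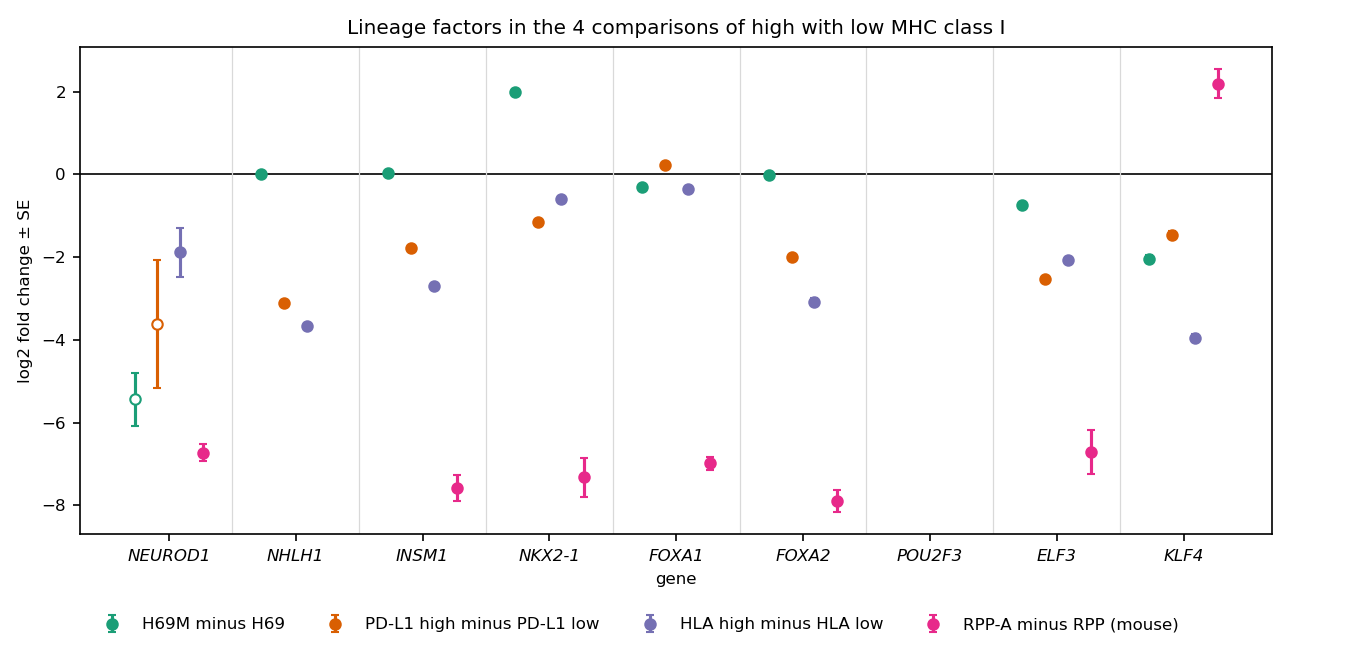
Log2 fold change with its SE (vertical axis) of each gene (horizontal axis) in the 4 comparisons of cells with high against low MHC class I, each from its own libraries. Open points mark NEUROD1 where 1 group had at most 3 counts, and genes without a point did not pass the filter. INSM1, FOXA2 and NHLH1 lie near 0 in H69M minus H69 and well below 0 in the PD-L1 and HLA sorts, and KLF4 is the only one of the 7 mouse genes above 0.

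NEUROD1, a neurogenic basic helix-loop-helix factor, was scarce in every human group and abundant in the mouse line RPP. It had no count in the PD-L1 high fraction. The PD-L1 low fraction had 0.0886, 0.0930 and 0 CPM, H69M had 0, 0.0498 and 0 CPM, and H69 had 1.01, 0.831 and 0.807 CPM. These values rest on 0 counts in the PD-L1 high fraction, 4 in the PD-L1 low fraction, 1 in H69M and 57 in H69, each over 3 libraries. NEUROD1 was thus detected in all 3 libraries of H69 and hardly at all in H69M and its PD-L1 fractions. The single count of unsorted H69M lies in its replicate 2. H69M was 61.3-fold lower than H69, with an exact 95% counting interval of 10.6 to 2462, and the PD-L1 high fraction was at least 15.9-fold lower than H69, taking 3 counts over a group as the floor. The PD-L1 low fraction was also lower than H69, by a log2 fold change of -3.58 ± 0.51 (adjusted p = 5.14e-06). Between the PD-L1 fractions the bound was only 1.23-fold, and the call there (adjusted p = 0.0413) was lost with the DESeq2 test (adjusted p = 0.0936), without a filter (0.0632), with the replicate number as a block (0.0569) and when any of 5 libraries was left out (0.0684 to 0.0980). These are the low replicates 1 and 2 and each high replicate.

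In the H69EZ fractions NEUROD1 had 0.0801 and 0.0782 CPM in the HLA high fraction, against 0.237 and 0.371 CPM in the HLA low fraction, from 7 counts in the high and 28 in the low fraction. The log2 fold change was -1.88 ± 0.59 (adjusted p = 0.00185 with edgeR), and the call was lost with the DESeq2 test (0.0651). Leaving out HLA low replicate 2 leaves that fraction without a replicate, so only the log2 fold change of -1.55 is given and no call is read from it. CERKL overlaps NEUROD1 on the same strand, and its level did not follow that of NEUROD1, with a mean of 55.7 CPM in the PD-L1 high fraction, 138 CPM in the PD-L1 low fraction, 117 CPM in H69M and 34.9 CPM in H69. How shared reads were assigned is not given in the sources used here.

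Mouse Neurod1 separated the lines without overlap. It had 0.474, 0.230 and 0.50 CPM in RPP-A and 45.0, 42.0 and 41.0 CPM in RPP, a log2 fold change of -6.72 ± 0.21 (adjusted p = 1.91e-07). The 19 counts over the RPP-A libraries show that some transcript remained.

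NHLH1, a neuronal basic helix-loop-helix factor, had the widest spread between PD-L1 fractions of the members other than NEUROD1. Its levels were 19.7, 19.0 and 18.1 CPM in the PD-L1 high fraction and 179, 153 and 161 CPM in the PD-L1 low fraction. H69M had 28.9, 34.1 and 30.8 CPM and H69 had 32.6, 28.7 and 31.5 CPM. The low fraction stood far above all other groups, and unsorted H69M and H69 overlapped. The log2 fold change was -3.11 ± 0.08 in the sort (adjusted p = 2.67e-18), 2.41 ± 0.07 in the PD-L1 low fraction against H69 and -0.70 ± 0.08 in the PD-L1 high fraction against H69. Both fractions also differed from H69M, by 2.40 ± 0.07 for the low and -0.72 ± 0.08 for the high fraction. H69M differed from H69 by 0.016 ± 0.08 (adjusted p = 0.857).

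Unsorted H69M thus held NHLH1 nearer to the level of its PD-L1 high than of its PD-L1 low fraction, though 1.64-fold above the high fraction. The mean of H69M, 31.3 CPM, was also like that of H69, 30.9 CPM. On a linear CPM scale where 0 is the mean of the PD-L1 low and 100 the mean of the PD-L1 high fraction, H69M lay at 91.5 ± 1.81 (SD, n = 3). In H69EZ the gene had 16.8 and 17.1 CPM in the HLA high fraction, against 220 and 210 CPM in the HLA low fraction. That 12.7-fold difference, a log2 fold change of -3.66 ± 0.08, was again without overlap (adjusted p = 6.28e-52 with limma-voom). In the mouse Nhlh1 had no count in RPP-A and 3 counts in RPP, so no fold is given.

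INSM1, a zinc finger repressor used as a marker of neuroendocrine tumours, was lower in both sorted MHC class I high fractions. It had 694, 706 and 663 CPM in the PD-L1 high fraction against 2466, 2344 and 2312 CPM in the PD-L1 low fraction. H69M averaged 1678 ± 1.5 CPM and H69 1627 ± 44.9 CPM (SD, n = 3 each). The order was PD-L1 low, then H69M and H69, which did not differ beyond their spread, then PD-L1 high. The sort gave -1.79 ± 0.05 (adjusted p = 7.61e-18) and H69M minus H69 gave 0.045 ± 0.05 (adjusted p = 0.390). The HLA high fraction had 218 and 202 CPM against 1367 and 1352 CPM in the HLA low fraction, which is 6.47-fold lower (adjusted p = 9.95e-51 with limma-voom). In RPP-A Insm1 had 1.83, 2.12 and 0.687 CPM against 261, 309 and 325 CPM in RPP, a log2 fold change of -7.58 ± 0.32 (adjusted p = 5.11e-07).

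**Figure D2:**
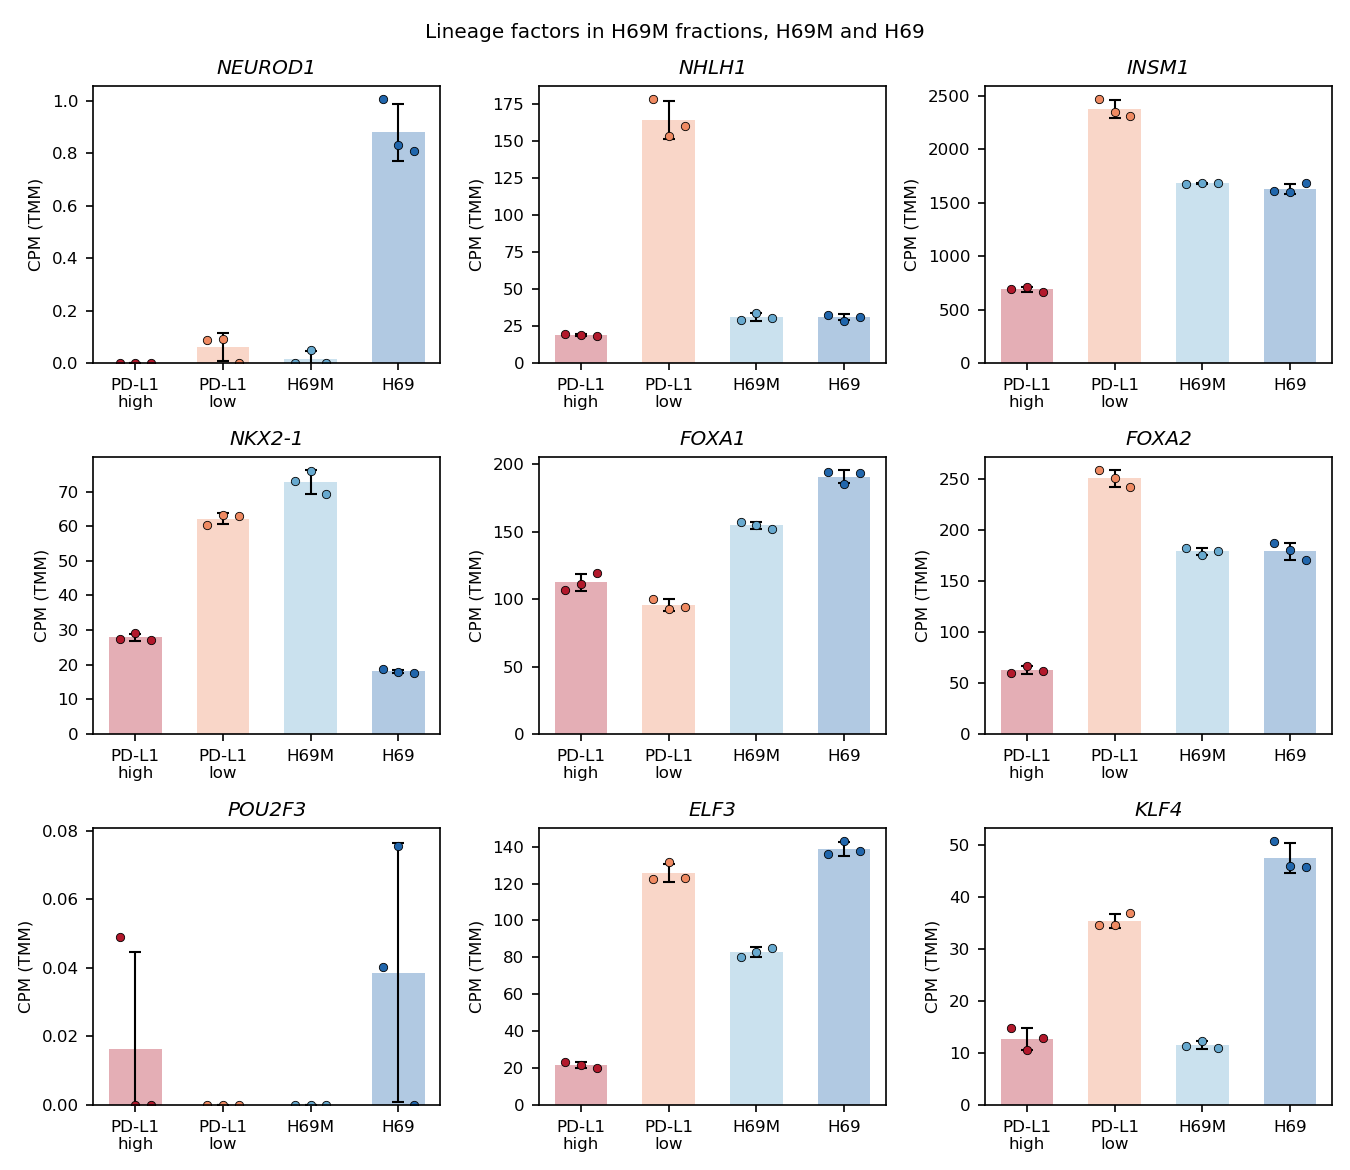
CPM after TMM scaling (vertical axes, each from 0) of the 9 genes in the sorted PD-L1 high and low fractions of H69M, unsorted H69M and H69. Bars are means, error bars SD and points the 3 libraries. NHLH1 is highest in the PD-L1 low fraction at 153 to 179 CPM, and NKX2-1 is highest in H69M at 69.3 to 76.1 CPM.

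NKX2-1, the lung and thyroid factor that specifies lung epithelium, was the only member called higher in H69M than in H69. It had 27.5, 29.2 and 27.1 CPM in the PD-L1 high fraction and 60.3, 63.2 and 63.0 CPM in the PD-L1 low fraction. H69M had 73.0, 76.1 and 69.3 CPM and H69 had 18.7, 18.1 and 17.8 CPM. No 2 of the 4 groups overlapped, and all 6 differences between them were called. H69M stood above both of its fractions, and the log2 fold change against H69M was -0.23 ± 0.05 in the low fraction (adjusted p = 0.00119) and -1.38 ± 0.06 in the high fraction. Against H69 the difference was 2.00 ± 0.06 in H69M, 1.77 ± 0.06 in the low and 0.62 ± 0.07 in the high fraction. Its antisense gene NKX2-1-AS1 had means of 1.56, 2.65, 3.51 and 1.81 CPM in the PD-L1 high and low fractions, H69M and H69, and without known strand handling reads of the pair cannot be told apart.

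In H69EZ NKX2-1 had 20.2 and 21.1 CPM in the HLA high fraction against 31.0 and 31.7 CPM in the HLA low fraction. The log2 fold change was -0.60 ± 0.08 (adjusted p = 8.17e-14 with edgeR), and of the 8 members tested in this sort FOXA1 alone differed less. In the mouse Nkx2-1 had 3.52, 3.39 and 0.687 CPM in RPP-A, against 431, 392 and 396 CPM in RPP. The level was 160-fold lower, a log2 fold change of -7.32 ± 0.46 (adjusted p = 3.58e-06), and -6.87 without RPPM3, the RPP-A library with the lowest value.

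FOXA1 and FOXA2 are forkhead pioneer factors of foregut endoderm that open chromatin for other factors, and in the H69 table they did not move together. FOXA1 had 107, 111 and 119 CPM in the PD-L1 high fraction, 100, 92.4 and 94.2 CPM in the PD-L1 low fraction, 158, 155 and 152 CPM in H69M and 194, 186 and 193 CPM in H69. Both fractions were below unsorted H69M, and H69M below H69. FOXA1 was the only member called higher in the PD-L1 high fraction, by 0.23 ± 0.05 (adjusted p = 5.86e-04), and this call was lost with library totals in place of TMM (0.093, adjusted p = 0.119). Against H69 the log2 fold change was -0.30 ± 0.05 in H69M (adjusted p = 2.77e-05), -1.0 ± 0.05 in the PD-L1 low and -0.76 ± 0.05 in the PD-L1 high fraction.

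FOXA2 instead followed the pattern of INSM1. It had 60.1, 67 and 61.4 CPM in the PD-L1 high fraction, 258, 251 and 242 CPM in the PD-L1 low fraction, 182, 176 and 179 CPM in H69M and 187, 180 and 170 CPM in H69. The sort gave -1.99 ± 0.06 (adjusted p = 1.62e-17). H69M and H69 overlapped, with a log2 fold change of -0.0028 ± 0.05 (adjusted p = 0.963) whose sign changed with the scaling. Against H69 it was 0.48 ± 0.05 in the low and -1.51 ± 0.06 in the high fraction. The likeness to INSM1 showed in the correlation of log2(CPM + 1) over the 12 libraries of the table, r = 0.995, where FOXA2 ranked second among 14769 genes for INSM1. The 12 libraries form only 4 groups, so this describes the group means.

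In the HLA sort FOXA1 changed little and FOXA2 much. FOXA1 had 73.1 and 78.1 CPM in the HLA high fraction against 96.4 and 96.5 CPM in the HLA low fraction. The difference was -0.35 ± 0.07 (adjusted p = 2.73e-07 with edgeR). FOXA2 had 22.5 and 21.2 CPM in the HLA high fraction against 187 and 182 CPM in the HLA low fraction, which is 8.40-fold lower (adjusted p = 2.44e-48 with limma-voom). In the mouse line both genes were far lower in RPP-A. Foxa1 had 2.98, 3.04 and 2.12 CPM in RPP-A against 340, 358 and 339 CPM in RPP, a difference of -6.99 ± 0.16 (adjusted p = 1.30e-07). Foxa2 had 1.02, 1.26 and 0.437 CPM in RPP-A against 190, 241 and 224 CPM in RPP, a difference of -7.89 ± 0.27 (adjusted p = 2.43e-07), the greatest of the 7 mouse genes tested.

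**Figure D3:**
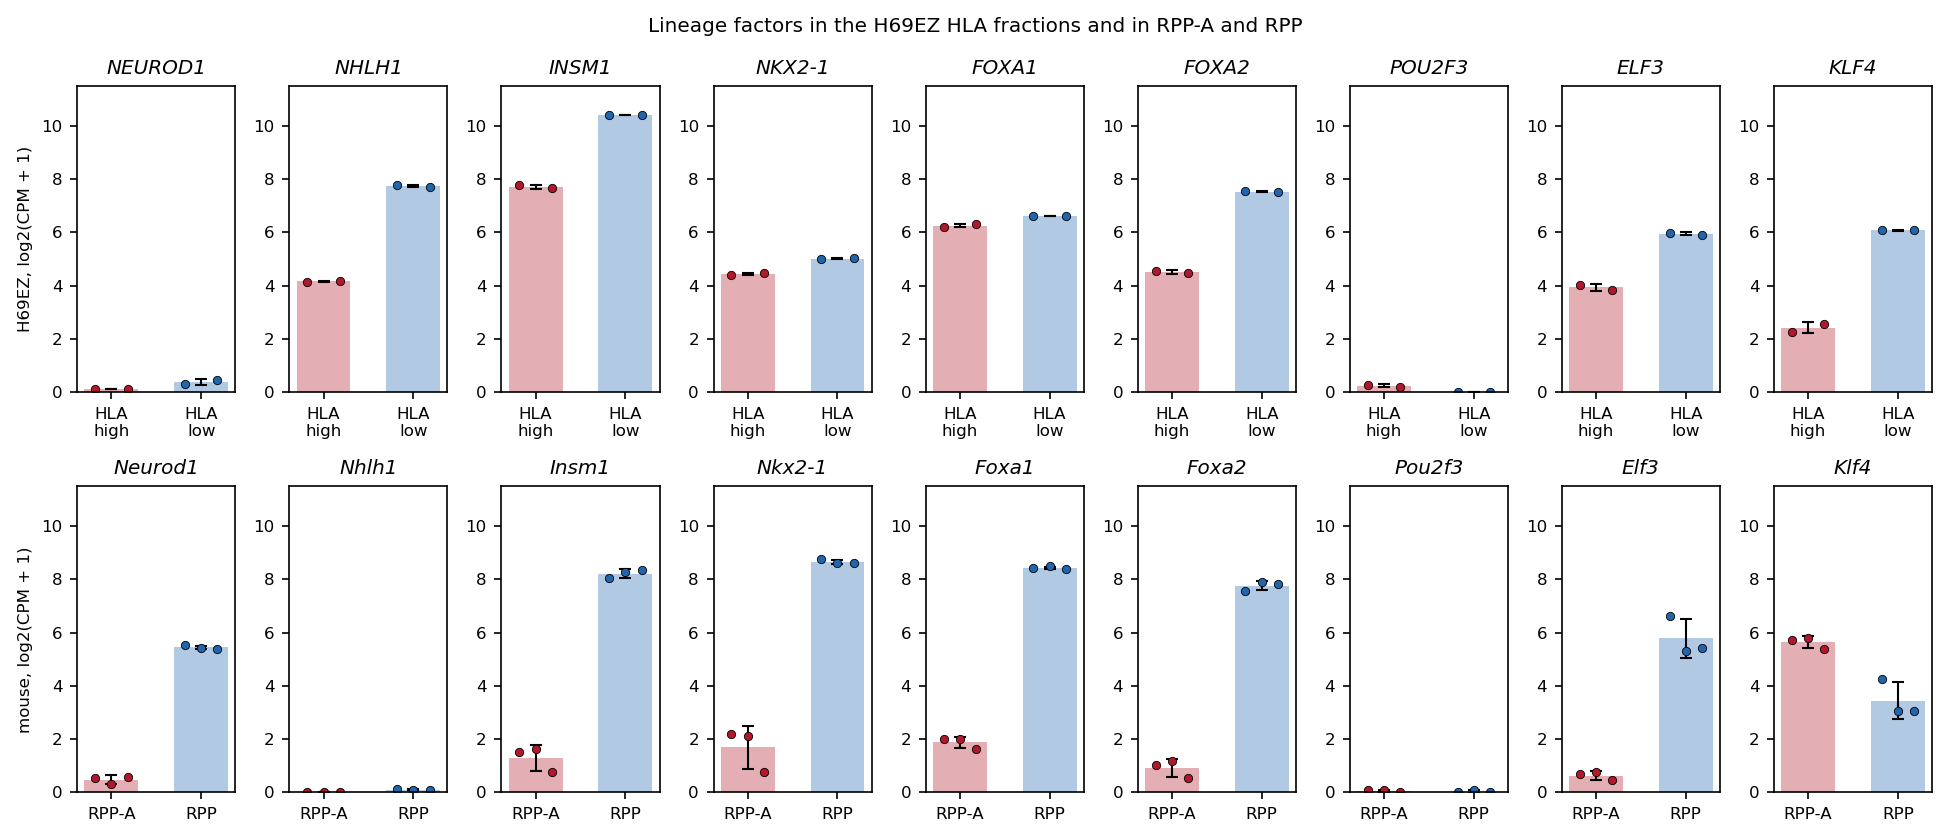
Log2(CPM + 1) (vertical axes) of the 9 genes in the HLA high and low fractions of H69EZ (upper row, 2 libraries each) and in RPP-A and RPP (lower row, 3 libraries each). Bars are means, error bars SD and points libraries. In the lower row 6 of the 7 tested genes are near the bottom in RPP-A, and Klf4 is higher there at 41.4 to 55.2 CPM.

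POU2F3, the POU factor that specifies tuft cells and names the tuft-like SCLC subtype, was at or near 0 in all groups. It had 1 count over the PD-L1 high fraction, none in the PD-L1 low fraction, none in H69M and 3 over H69. RPP-A had 2 counts and RPP 1. None of these is above the floor of 3 counts, so no difference was detectable at this depth. In the HLA high fraction of H69EZ, however, it had 11 and 6 counts (0.220 and 0.156 CPM), against none in either HLA low library, which is at least 6.01-fold higher. The level was under 1 CPM in both libraries. Without the filter on low counts it was tested and called higher, and the other 8 members were called lower. With the filter those 8 were called lower too, where 81.3% of all tested genes were called.

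ELF3, an epithelial ETS factor, was lower in every MHC class I high group than in the cells it was set against. It had 23.3, 21.5 and 20.2 CPM in the PD-L1 high fraction and 123, 132 and 123 CPM in the PD-L1 low fraction. H69M had 80.4, 83.1 and 85.3 CPM and H69 had 136, 143 and 138 CPM. The high fraction stood apart from all others, while the low fraction lay near H69. The sort gave -2.53 ± 0.06 (adjusted p = 2.14e-18), and H69M minus H69 gave -0.74 ± 0.05 (adjusted p = 1.74e-10). The PD-L1 low fraction exceeded H69M by 0.60 ± 0.05. It differed from H69 by only -0.14 ± 0.05 (adjusted p = 0.0207), a call lost with library totals (-0.044, adjusted p = 0.450), a minimum count of 100 (0.122), no filter (0.0577) and without H69 replicate 2 (0.0800), PD-L1 low replicate 1 (0.130) or PD-L1 low replicate 3 (0.0714).

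The HLA high fraction had 15.5 and 13.5 CPM of ELF3 against 62.5 and 59.2 CPM in the HLA low fraction, 4.19-fold lower (adjusted p = 6.57e-35 with limma-voom). Mouse Elf3 had 0.610, 0.689 and 0.375 CPM in RPP-A against 98.2, 38.4 and 41.7 CPM in RPP. The value of 98.2 CPM belongs to EHK_RPP4. The difference was -6.71 ± 0.54 (adjusted p = 1.29e-05), -6.10 without EHK_RPP4 and -5.88 without both EHK_RPP4 and RPPM3.

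KLF4, a Krüppel-like factor of differentiated epithelium and of pluripotent cells, was lower in both H69M and its PD-L1 high fraction than in H69. It had 14.9, 10.6 and 12.8 CPM in the PD-L1 high fraction, 34.7, 34.7 and 37.0 CPM in the PD-L1 low fraction, 11.3, 12.4 and 10.9 CPM in H69M and 50.7, 45.9 and 45.8 CPM in H69. The high fraction and unsorted H69M overlapped. The differences were -2.05 ± 0.09 in H69M minus H69 (adjusted p = 5.45e-14), -1.47 ± 0.09 in the sort (adjusted p = 1.40e-11) and -0.43 ± 0.08 in the PD-L1 low fraction against H69 (adjusted p = 8.79e-05). PD-L1 high minus H69M was 0.15 ± 0.10 (adjusted p = 0.194). Without PD-L1 high replicate 1 this was -0.026, and without PD-L1 high replicate 2 it was 0.28 and was called (adjusted p = 0.0214).

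In H69EZ KLF4 had the widest difference of the 8 tested members. It had 3.84 and 4.90 CPM in the HLA high fraction against 66.4 and 67.2 CPM in the HLA low fraction, 15.4-fold lower (adjusted p = 4.08e-43 with limma-voom). In the mouse the direction was opposite. Klf4 had 51.8, 55.2 and 41.4 CPM in RPP-A against 18.1, 7.27 and 7.24 CPM in RPP, a difference of 2.20 ± 0.35 (adjusted p = 6.02e-04). The value of 18.1 CPM belongs to EHK_RPP4, without which the difference was 2.81, and without EHK_RPP4 and RPPM3 it was 2.92.

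The remaining differences among the 4 H69 groups fix the order of the levels. In the PD-L1 low fraction against H69, 4 members were called higher (NHLH1, INSM1, NKX2-1 and FOXA2) and 4 lower (NEUROD1, FOXA1, ELF3 and KLF4), where 75.9% of all genes were called. In the PD-L1 high fraction against H69, NKX2-1 was called higher and the other 7 lower, where 77.6% were called. Against unsorted H69M, the PD-L1 low fraction had 5 members called higher and 2 lower (65.6% of all genes called), and the PD-L1 high fraction had 6 called lower and 0 higher (70.4% called). These comparisons share libraries, so their counts are not independent of each other. In a test of whether the PD-L1 high against low difference equals that of H69M against H69, 7 of the 8 members were called, where 71.4% of all genes were. NKX2-1 had the greatest such difference, -3.15 ± 0.09 on the log2 scale (adjusted p = 5.44e-17).

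H69M did not lie at the same place between its fractions for every gene. INSM1, ELF3 and FOXA2 lay at 41.2 ± 0.0889, 41.1 ± 2.38 and 38.1 ± 1.70, nearer to the PD-L1 low fraction. NHLH1 and KLF4 lay at 91.5 ± 1.81 and 105 ± 3.38, near the PD-L1 high fraction on this linear scale. NHLH1 was even so 1.64-fold lower in the PD-L1 high fraction than in H69M. NKX2-1, at -31.1 ± 9.89, and FOXA1, at 351 ± 16.2, were higher in unsorted H69M than in either fraction. The place of FOXA1 was 814 with library totals, where its means were 108 CPM in the PD-L1 high and 101 CPM in the PD-L1 low fraction. Of the 2624 genes called and at least 2-fold lower in the PD-L1 high fraction, the median was 59.5 with quartiles of 33.2 and 85.2, and 8.27% lay under 0 and 10.8% over 100. The SD covers only the spread of the 3 H69M libraries.

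**Figure D4:**
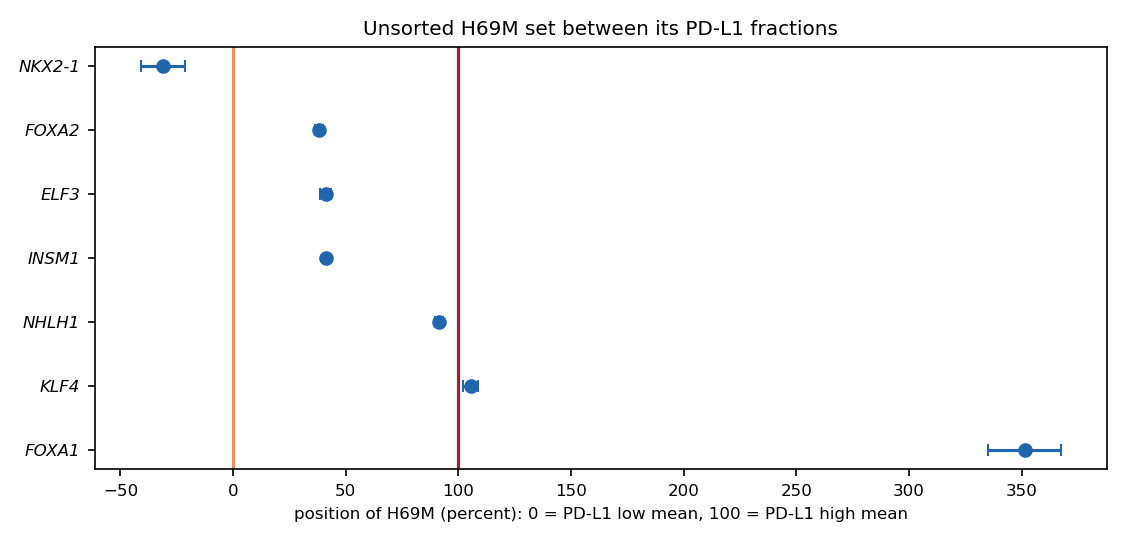
Position of unsorted H69M between the mean of its PD-L1 low fraction (0) and the mean of its PD-L1 high fraction (100), in percent (horizontal axis), for the 7 genes with a group mean of at least 1 CPM. Points are means and bars SD over the 3 H69M libraries. FOXA2, ELF3 and INSM1 lie at 38.1 to 41.2, and NKX2-1 and FOXA1 lie outside the range of 0 to 100.

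The other factors of the same programmes were read from 5 related lists. Among all tested genes, 35.9% were called higher and 36.6% lower in H69M minus H69, 39% and 39.4% between the PD-L1 fractions, 41.1% and 40.2% between the HLA fractions, and 37.6% and 40.6% in RPP-A minus RPP. A list whose counts lie near these shares is not set apart by them. Of the 25 tested neuroendocrine lineage factors other than the 9 members, 8 were called higher, 12 lower and 5 neither in H69M minus H69. The neuronal factors SOX11 (2.51 ± 0.08), POU3F2 (2.56 ± 0.06) and POU4F1 (2.49 ± 0.10) rose, and LHX2 fell (-3.32 ± 0.28). In the PD-L1 high fraction 23 of 25 were lower and 1 higher, with a list median of -1.13. PROX1, which has a part in neuroendocrine differentiation, had 32.7 ± 1.85 CPM in the PD-L1 high and 124 ± 9.04 CPM in the PD-L1 low fraction, and NKX2-2 had 18 ± 0.952 CPM in the PD-L1 high and 66.6 ± 1.34 CPM in the PD-L1 low fraction (SD, n = 3 each). INSM2, a relative of INSM1, was the single one called higher, by 0.33 ± 0.10. In the HLA high fraction 22 of 24 were lower and 2 higher (PAX6 by 0.72 ± 0.08 and POU4F1 by 0.35 ± 0.10), with a median of -1.72, and NEUROG2 fell by 3.41 ± 0.09. In RPP-A 18 of 19 were lower, with a median of -6.59, and Sox4 alone rose, by 1.20 ± 0.18.

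Beside this, the summed level of 7 fibroblast and stromal markers (COL1A1, COL1A2, COL3A1, DCN, LUM, PDGFRA and PDGFRB) went the other way. It was 11142 to 11439 CPM in the PD-L1 high fraction against 243 to 340 CPM in the PD-L1 low fraction, and 2499 to 2789 CPM in H69M against 147 to 151 CPM in H69. It was 16325 to 17759 CPM in the HLA high fraction against 94.4 to 97.2 CPM in the HLA low fraction, and 23067 to 30846 CPM in RPP-A against 86.2 to 459 CPM in RPP. All 7 were called higher in each of these 4 comparisons, and PDGFRB was at 0 in H69, COL3A1 in the HLA low fraction and Lum in RPP. The 6 leukocyte markers summed to at most 9.13 CPM in any human library. Of them, 5 are in the mouse table and summed to 32.5 to 36.4 CPM in RPP-A against 1.96 to 3.09 CPM in RPP. The 4 endothelial markers summed to 2.12 to 3.33 CPM in RPP-A against 39.5 to 46.8 CPM in RPP. CD3E was at 0 in all 8 groups and Ptprc was at 0 in RPP-A. The part of any of these in the results on the lineage factors was not tested. In H69EZ the mitochondrially encoded genes took 2.49% and 2.44% of counts in the HLA high fraction against 4.90% and 5.16% in the HLA low fraction, and leaving them out of library sizes changed no call of a member.

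The basic helix-loop-helix partners and antagonists were mixed. Of 17 tested genes, 8 were higher and 9 lower in H69M, against 3 and 11 between the PD-L1 fractions and 6 and 10 between the HLA fractions. The list medians were -0.31, -0.72 and -0.28. All genes were called higher and lower in near equal shares in each of these comparisons (35.9% and 36.6%, 39% and 39.4%, 41.1% and 40.2%). The ID proteins, which bind and block the partners of neurogenic factors, split in both sorts. ID1 and ID3 rose, ID3 by 1.02 ± 0.06 in the PD-L1 high and 1.54 ± 0.07 in the HLA high fraction. ID2 and ID4 fell, ID4 by 1.35 ± 0.07 in the PD-L1 high and 1.51 ± 0.06 in the HLA high fraction, and all 4 fell in H69M. HES1, a repressor downstream of Notch, rose in H69M by 1.81 ± 0.08, and BHLHE40 fell by 2.77 ± 0.10. In the PD-L1 high against the low fraction HES1 was lower by 0.28 ± 0.06, the other way than in H69M. BHLHE40 was lower there by 0.97 ± 0.08. Its means were 30.4, 59.2, 5.51 and 38.2 CPM in the PD-L1 high and low fractions, H69M and H69. HES6 fell by 2.29 ± 0.07 in the HLA high fraction. In RPP-A 3 of 14 rose and 9 fell, where 37.6% and 40.6% of all genes did, with a list median of -1.5, and among those that fell was Id4 with 16.7 ± 3.16 CPM against 542 CPM in RPP.

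The tuft cell list did not follow 1 direction. In H69M 6 of 14 tested genes were higher and 5 lower, 4 and 9 between the PD-L1 fractions, 3 and 5 of 12 between the HLA fractions, and in RPP-A 4 and 3 of 8. The medians in the same order were 0.36, -1.05, -0.044 and 0.68. Over all genes the shares higher and lower were 35.9% and 36.6% in H69M, 39% and 39.4% between the PD-L1 fractions, 41.1% and 40.2% between the HLA fractions and 37.6% and 40.6% in RPP-A. POU2AF1, a coactivator of POU2 factors, had 0.0576 CPM in the PD-L1 high fraction against 1.07 CPM in the PD-L1 low fraction. SOX9 rose by 1.82 ± 0.07 in the HLA high fraction and by 5.05 ± 0.75 in RPP-A. ALOX5AP had the largest fitted rise of the list in H69M, from no count in H69 to 2.50 CPM. In H69M GNAT3 rose by 6.11 ± 0.21 and HMX2 by 2.41 ± 0.27, and DCLK1 fell by 2.77 ± 0.07. Between the PD-L1 fractions DCLK1 was instead higher in the high fraction, by 0.62 ± 0.06.

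Genes of lung and endoderm, the programme of NKX2-1, FOXA1 and FOXA2, were called higher in 4 cases and lower in 2 of 13 tested in H69M, against 3 and 9 of 13 between the PD-L1 fractions. In the HLA high fraction 3 of 14 were higher and 8 lower, and in RPP-A 4 of 12 were higher and 8 lower. Of all genes, 36.6%, 39.4%, 40.2% and 40.6% were lower and 35.9%, 39%, 41.1% and 37.6% higher in these comparisons. The list medians were -0.033, -0.67, -0.33 and -2.02. HOPX had the largest fitted rise of the list in H69M and in the PD-L1 high fraction, at 1.04 and 3.51 CPM. It had no count in H69 or the PD-L1 low fraction. GATA6, an endodermal GATA factor, rose by 3.80 ± 0.24 in H69M and by 4.13 ± 0.16 in the PD-L1 high fraction. CEBPA fell by 2.99 ± 0.32 in the PD-L1 high and by 3.09 ± 0.23 in the HLA high fraction. Mouse Gata4 rose by 2.78 ± 0.51 and Foxj1, the factor of ciliated cells, fell by 5.48 ± 0.52.

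The ETS and KLF relatives of ELF3 and KLF4 moved both ways. In H69M 4 of 22 tested genes were higher and 11 lower, between the PD-L1 fractions 6 and 11 of 22, in the HLA high fraction 8 and 10 of 21, and in RPP-A 12 and 9 of 23. The shares higher and lower among all genes were 35.9% and 36.6%, 39% and 39.4%, 41.1% and 40.2%, and 37.6% and 40.6%. The list medians were -0.19, -0.26, -0.066 and 0.34. ETV5 had 90.8 ± 5.11 CPM in the PD-L1 high and 2.27 ± 0.916 CPM in the PD-L1 low fraction, and 26.9 ± 0.563 CPM in H69M against 0.117 CPM in H69. ETS1 rose by 2.02 ± 0.06 in the HLA high fraction, where KLF11 fell by 1.34 ± 0.07. Klf15 rose by 4.27 ± 0.22 and Klf12 fell by 3.84 ± 0.20 in RPP-A.

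**Figure D5:**
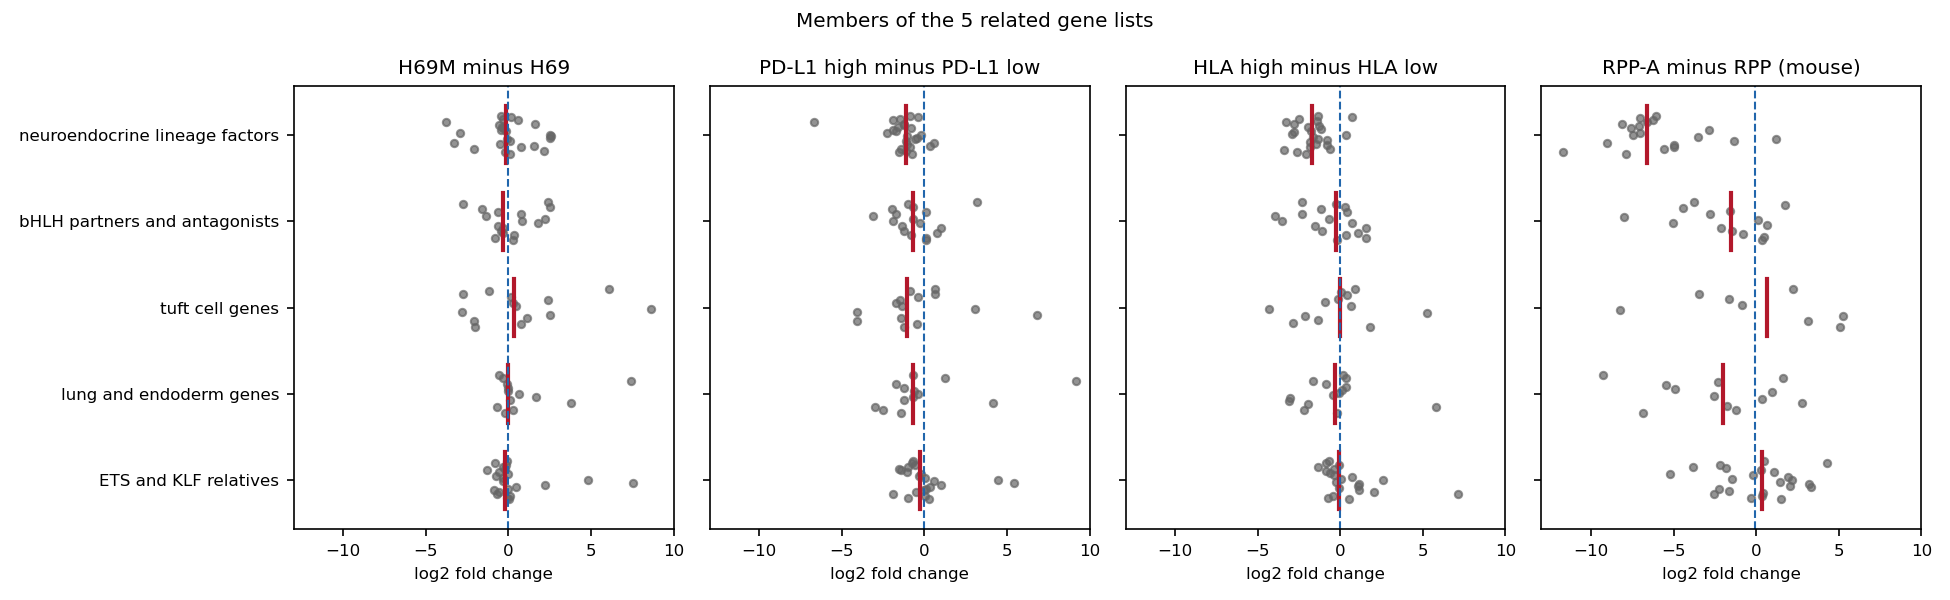
Log2 fold change (horizontal axes) of each tested gene of the 5 related lists (points) in the 4 comparisons, with the list median as a red bar and the median of all tested genes as a dashed line. Fitted values of genes without a count in 1 group depend on the prior count. The neuroendocrine lineage factors have medians of -0.14, -1.13, -1.72 and -6.59 from the left panel to the right.

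Genes whose levels ran most like those of a member across the 12 libraries of the H69 table were found by Pearson correlation of log2(CPM + 1) among 14769 genes, as a description of 4 group means. For NHLH1 these were ATF3 (r = 0.996), GPT2 (0.995) and PDE2A (0.994), and ATF3 had means of 9.72, 109, 15.6 and 16.4 CPM in the PD-L1 high and low fractions, H69M and H69. For INSM1 they were VSTM4 (0.996), FOXA2 and MTURN (0.994), and for FOXA2 they were INSM1, FRY (0.994) and AGTPBP1 (0.992). For NKX2-1 they were MTUS1, NEUROG2 and RTN1, with NEUROG2 at 47.5, 104, 119 and 27.1 CPM in the same order of groups. FOXA1 ran with CKS2 (0.995), SRM and NDUFB9, genes of the cell cycle, polyamine synthesis and respiration. ELF3 ran with SV2B, NELL1 and KCTD16 (0.998 each), and KLF4 with TSPEAR, FAM84B and PRODH (0.990 to 0.991).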

How the data were processed

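RNA from the 22 libraries was made, per the labels' protocols, with the RNeasy kit, and 250 ng were used for exome capture and sequencing on an Illumina NextSeq. The authors deposited whole-number read counts per gene in 3 tables, which were used as deposited. STAR 2.6.1 and builds hg19 and mm10 are named per the submitters' processing notes. How reads were counted, against which gene models and with which strand setting, is not given in the sources used here. The mouse columns could be tied to a group but not to a replicate of the labels, with RPPM read as RPP-A.

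Each table was fitted alone in R 4.3.3 with edgeR 4.0.16 (quasi-likelihood F-test, two-sided, TMM, filterByExpr with a minimum count of 10, 1 coefficient per group), which tested 15445, 14819 and 14032 of 25435, 20113 and 24047 genes. P-values were adjusted after Benjamini-Hochberg across all tested genes and called under 0.05. Standard errors were derived from the log2 fold change and the F statistic. For H69EZ the fit pooled the spread wholly across genes, so its p-values are very small. limma-voom (limma 3.58.1) was added, but its adjusted p for NHLH1 was still 6.28e-52. It is therefore no independent check, and with so few H69EZ libraries the fold changes say more than either set of p-values. The scripts were tested on simulated counts. Intervals and floors cover counting error only.

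Named genes were all 9 members and, for members with a group mean of at least 1 CPM in the H69 table, the 3 genes most correlated with each. From each of 5 lists genes were taken from the largest called rises and falls (at most 3 each way per comparison, mean of at least 1 CPM in either group). Not all of these are named, and some genes were also read in a further comparison or as exceptions to the direction of a list. The members and lists were chosen with earlier results of these data known. Alternatives were DESeq2 1.42.0 size factors, library totals, the DESeq2 test, no filter, a minimum count of 100, a 2-fold minimum, only the 2 groups compared, the replicate block, each library left out, library sizes without mitochondrially encoded genes or Rn45s, and RPPM1 and RPPM2 summed. Added after seeing the data were limma-voom for H69EZ and the mouse table without EHK_RPP4 and RPPM3. Overlapping and antisense genes were looked up by gene model names. Promoters are RefSeq's, of another build than the files.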

Additional observations from a re-analysis of the deposited data

Results flagged for a closer look

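For 7 of the 8 tested members the difference between the PD-L1 fractions of H69M was not the same as the difference between H69M and H69, by a test of the difference itself in the edgeR fit, where 71.4% of all tested genes were called. The log2 fold change of the sort minus that of H69M against H69 was -3.13 ± 0.11 for NHLH1 (adjusted p = 2.28e-15), -1.83 ± 0.07 for INSM1 (adjusted p = 3.72e-15), -3.15 ± 0.09 for NKX2-1 (adjusted p = 5.44e-17), -1.99 ± 0.08 for FOXA2 (adjusted p = 8.99e-15) and -1.79 ± 0.08 for ELF3 (adjusted p = 1.65e-13). It was 0.53 ± 0.07 for FOXA1 (adjusted p = 2.24e-06) and 0.58 ± 0.13 for KLF4 (adjusted p = 5.85e-04). NKX2-1 and FOXA1 had opposite signs in the 2 comparisons. For FOXA1 the sort value was only 0.23, and its call in the sort was lost with library totals (0.093, adjusted p = 0.119). The 7 calls of the difference itself kept their direction and stayed under the threshold in the alternatives run other than the 2-fold minimum. FOXA1 and KLF4 did not reach that minimum, and the highest adjusted p was 0.0130 for KLF4.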

How the results depend on the processing

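Of the values of members under alternatives, 969 kept direction and side of the threshold, 39 lost a call, 1 gained one and 13 changed sign. For FOXA2 in H69M minus H69 the sign changed with DESeq2 size factors (0.017), library totals (0.039), the DESeq2 test (0.016), no filter (0.030), a minimum count of 100 (0.014), only the 2 groups (0.026) and among the left-out libraries (-0.036 to 0.028). Leaving out a library gave -0.045 to 0.069 for NHLH1 in H69M minus H69, -0.026 to 0.28 for KLF4 and -2.24 to 0 for NEUROD1 in PD-L1 high minus H69M, none of them called with all libraries. The cause was not tested.

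A 2-fold minimum lowered the genes called to 3669 in H69M minus H69, 5144 between the PD-L1 fractions, 3933 and 4982 in the PD-L1 low and high fractions against H69, 2533 and 3631 in the same against H69M, 5144 in the difference, 5082 between the HLA fractions and 7016 in the mouse. Members called became 3, 5 and 3 in H69M, PD-L1 high and PD-L1 low against H69, and 2 in PD-L1 low against H69M. They became 7 between the PD-L1 fractions, 6 between the HLA fractions, 4 in PD-L1 high against H69M and 5 in the difference, all lower. In the mouse 1 was higher and 6 lower. The position of H69M moved for INSM1 to 40.5 and 43.5 and for FOXA1 to 309 and 814 with DESeq2 size factors and library totals, and for FOXA2 to 40.6 with library totals.

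Library totals moved the median log2 fold change of all genes by -0.14 between the PD-L1 fractions, -0.15 between the HLA fractions, -0.18 in the difference and -0.37 in the mouse, where the share of higher calls was 35.2% in place of 48.1%. With library totals FOXA1 between the PD-L1 fractions and ELF3 in PD-L1 low minus H69 lost their calls, and no called member changed sign.

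Whether the replicate numbers pair the samples is not in the labels, and same-numbered libraries correlated weakly (-0.32 to 0.23). In PD-L1 high minus H69M each library was closest to the one of its own number (r = 0.14, 0.18 and 0.037). For H69EZ both values were 0.073, and n = 2 a group cannot show whether the samples were paired. With the replicate block 10915 genes were called in H69M minus H69, 11923 between the PD-L1 fractions and 12031 between the HLA fractions, and the only member to lose a call was NEUROD1 in the PD-L1 sort. No paired analysis was possible for the mouse because its columns carry no label replicate numbers. Depth limits NEUROD1 in the human cells and POU2F3 in all 8 groups, which stood at or under 17 counts a group for POU2F3.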
